A study of Mus musculus with 8 samples.

Results

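The solute carrier genes are the genes whose symbol begins with Slc or Slco followed by a digit. Symbols in the 2 deposited tables of the series gave 184 such genes of 10060 listed in all. The first table counts reads at 2 polyadenylation sites within the 3′-most exon, a proximal and a distal one, and held 141 of them among 7951 genes. The second counts the 3′-most exon against a site in an exon upstream of it and held 106 among 6147 genes, and 63 stood in both. Of the 184, 3 match by symbol alone and are not carriers: Slc4a1ap, Slc7a6os and Slc9a3r2 were named after a neighbouring or interacting carrier.

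Solute carriers are membrane proteins that move ions, transmitters, amino acids, sugars, metals, vitamins and nucleotides down or against gradients, many of them driven by the sodium gradient that the sodium pump sustains. In brain they clear glutamate and GABA from the synapse, fill synaptic vesicles, set the chloride level of neurons, pass glucose and thyroid hormone across the vessel wall, and feed mitochondria. Cleavage and polyadenylation at a proximal or a distal site gives mRNAs that differ in the length of the 3′ UTR, whereas an upstream-exon site gives mRNAs whose encoded carboxy-terminus often differs.

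Whole brain was taken from 8 mice aged 50 days, which the labels describe as separate animals: 3 wild-type littermates and 5 mice with Cstf2 D50A. All were of a C57BL/6NCrl background, kept as a congenic colony after 4 generations of backcrossing, and none was treated. D50A exchanges aspartate for alanine at residue 50, within the RNA-binding domain (RNA recognition motif) of CSTF2, the X-linked cleavage stimulation factor subunit that binds RNA downstream of a polyadenylation site; the series title ties it to intellectual disability. Sex and batch are not given in the labels. Reads of 3′ ends do not cover the altered codon, so the genotype rests on the labels. The comparison asks whether mutant and wild-type brain differ in where transporter transcripts end and in how many there are.

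The first table held 9616953 to 17530761 reads a library and the second 7075383 to 13145966. Solute carriers took 1.32 to 1.87% of the first and 1.17 to 1.54% of the second, with wild type 1 lowest in both. Libraries of a genotype were not alike in the levels of cell type markers. The mean level of 9 measured of 12 cerebellar granule cell markers was 7.19, 6.96 and 6.96 log2 CPM (reads scaled to a common library total) in wild type 1 to 3, between 4.85 and 4.93 in mutants 1 to 4, and 6.95 in mutant 5. Summed, these 9 markers came to 2402, 2064 and 1903 CPM in wild type, 502.3 to 532.7 in mutants 1 to 4 and 2042 in mutant 5. Purkinje cell markers, 6 measured of 10, averaged 7.58 to 7.84 in wild type, 6.62 to 6.71 in mutants 1 to 4 and 7.73 in mutant 5. Endothelial and pericyte markers, 4 measured of 12, averaged 3.95, 4.25 and 4.77 in wild type and 4.39 to 5.27 in mutants, with wild type 3 above mutants 3 and 5. In whole tissue, fewer cells of a type and less RNA per cell cannot be told apart.

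No solute carrier passed an adjusted p of 0.05 in any of the 4 comparisons by edgeR's quasi-likelihood test, and no gene of either table did: edgeR called 0% of all pairs in each. The members with an unadjusted edgeR p under 0.05 in either direction numbered 18 of 137 in distal site usage (1003 of 7876 over all pairs) and 13 of 106 in 3′-most exon usage (834 of 6001). For level they numbered 20 of 137 by the first table (1133 of 7876) and 13 of 106 by the second (903 of 6001). DESeq2 called 2 members, Slc7a1 and Slc25a22, both higher in level in mutants. All other differences below are therefore given as values and directions that did not pass the adjusted threshold.

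Slc7a1, which encodes CAT1, the cationic amino acid transporter that brings arginine and lysine into cells, had an unadjusted p under 0.05 in all 4 comparisons, as did Slc25a32 alone among the other members. The 4 comparisons of a gene share reads, so they are not separate evidence. The sites of Slc7a1 lie at 149139924 (proximal) and 149138986 (distal) on mm9, 938 bases apart. No chromosome is named. The distal site took 58.8, 54.0 and 40.4% of its reads in wild types 1 to 3 and 32.0, 31.0, 34.8, 30.6 and 41.3% in mutants 1 to 5. Mutants lay below wild type apart from mutant 5, which stood just above wild type 3. The log2 change of the distal over the proximal site was -1.02 (SE 0.286, edgeR adjusted p = 0.388).

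Most of that shift came with more reads at the proximal site. The proximal site of Slc7a1 held 10.2, 14.3 and 20.6 CPM in wild type and 33.3, 32.1, 31.9, 36.0 and 28.1 in mutants, so that every mutant was above every wild type. The distal site held 15.1 ± 1.52 for wild type (SD, n = 3) and 16.5 ± 2.01 for mutants (SD, n = 5), within each other's spread.

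In the second table, the 3′-most exon of Slc7a1 held 83.1, 80.8 and 82.2% of the reads of the wild types and 93.6, 90.6, 87.7, 94.0 and 89.2% in mutants. The groups did not overlap, and mutant 5 was above each wild type. The log2 change was 1.20 (SE 0.306), with an edgeR adjusted p of 0.287.

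The level of Slc7a1 was 4.64, 4.97 and 5.12 log2 CPM in wild type and 5.62, 5.55, 5.62, 5.70 and 5.58 in mutants by the first table. The 5 mutants lay close together and all above wild type. Its log2 change was 0.69 (SE 0.137), with an adjusted p of 0.345 by edgeR and 0.0105 by DESeq2. By the second table the level was 5.61 ± 0.258 for wild type (SD, n = 3) and 6.17 ± 0.0469 for mutants (SD, n = 5), again without overlap (log2 change 0.55, SE 0.130). These tables share reads, so the second level is no independent repeat of the first. With the granule marker level as a covariate, the log2 change was 0.63 and 0.49 in the 2 tables, with an edgeR adjusted p of 1 in each. Mutant 5 was above every wild type in both tables. The part of tissue content in the level of Slc7a1 was not tested.

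**Figure D1:**
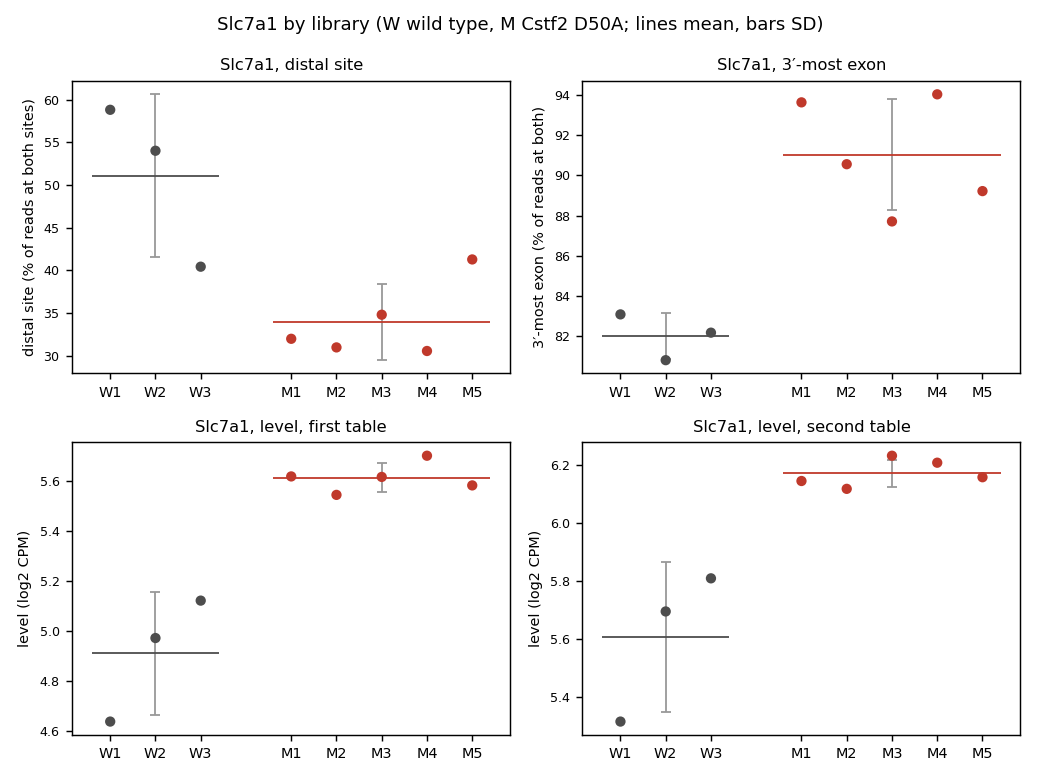
Slc7a1 in each library: share of reads at the distal site and in the 3′-most exon (%, upper panels) and level by the first and second table (log2 CPM, lower panels). Points are libraries (W wild type, M Cstf2 D50A), lines the group means and bars the SD; vertical axes do not start at 0. In the share of the 3′-most exon and in both levels all 5 mutants sit above all 3 wild types, while the distal share of mutant 5 (41.3%) lies just above that of wild type 3 (40.4%).

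Within the 3′-most exon, solute carriers as a whole ended at the distal site about as often as other genes. The wild-type distal share had a median of 55.0% over 137 tested members (quartiles 23.8 and 84.1%), against 52.0% over all pairs. The 2 sites of a member lay a median of 580 bases apart (quartiles 139 and 1830), against 629 for all genes. In 17 members the distal site took under 10% of wild-type reads (12.4%, against 18.1% of all pairs). In 28 it took 90% or more (20.4%, against 19% of all pairs). Slc12a5, which encodes the neuronal chloride extruder KCC2, ended at the distal site in 0.365 to 0.842% of reads in every library, whereas Slc17a7, the vesicular glutamate transporter VGLUT1, did so in 99.7 to 99.8%. The 2 sites lie only 32 bases apart in Slc12a5 and 144 in Slc17a7. Among genes named below, Slc7a14 (55 bases) and Slc7a11 (51 bases) also have close sites.

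Of the 137 members tested, 11 leaned toward the distal site in mutants at an unadjusted p under 0.05 (8.03%), against 8.57% of all pairs. Toward the proximal site there were 7 (5.11%), against 4.16% of all pairs. The log2 change was positive in 76 members, and its median was 0.07 against 0.12 over all pairs. All 5 mutants lay above all 3 wild types in 2 members and below in 2 (1.46% each), against 2.53 and 1.63% of all pairs. DESeq2 called no member and 0.267% of all pairs. These shares of members are near those of all pairs.

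Among metal carriers, 20 were tested for distal site usage. At an unadjusted p under 0.05 the distal site was favoured in 2 and the proximal in 1. These are 10 and 5% of them, against 8.57 and 4.16% of all pairs. Slc39a13, a zinc transporter of the secretory pathway, ended at the distal site in 90.7, 90.7 and 95.1% of wild-type and 97.6, 96.5, 98.9, 96.3 and 95.4% of mutant reads. Every mutant was above every wild type, mutant 5 by the least (log2 change 1.42, SE 0.434, edgeR adjusted p = 0.388). Slc11a2 encodes the iron transporter DMT1, whose transcripts are known to end in alternative last exons with or without an iron-responsive element.

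The distal share of Slc11a2 was 52.1, 51.8 and 45.0% in wild type and 35.3, 35.2, 37.5, 37.1 and 41.9% in mutants. The groups did not overlap, and the log2 change was -0.72 (SE 0.216, edgeR adjusted p = 0.388). Both sites moved: the distal one held 14.3 ± 1.15 and 11.5 ± 0.880 CPM for wild type (SD, n = 3) and mutants (SD, n = 5), and the proximal one 14.5 ± 1.62 and 19.2 ± 1.05. The second table shows the larger split of this gene, with 22.7 to 25.7% of reads in the 3′-most exon in wild type and 21.2 to 28.2% in mutants. That share overlapped between the genotypes, so the difference in Slc11a2 was seen between the 2 sites of the last exon and not between exons.

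Mitochondrial carriers were the largest group, with 27 tested. At the same threshold 3 favoured the distal site and 1 the proximal (11.1 and 3.7%, against 8.57 and 4.16% of all pairs). Slc25a22, a mitochondrial glutamate carrier, had a distal share of 59.1, 51.8 and 85.6% in wild type and 96.6, 95.6, 92.7, 97.4 and 75.5% in mutants. Mutants 1 to 4 lay above all wild types, and mutant 5 lay below wild type 3 (log2 change 2.73, SE 0.873, edgeR adjusted p = 0.388). Its proximal site held 1.42 ± 0.358 CPM for wild type (SD, n = 3) and 1.27 ± 0.605 for mutants (SD, n = 5), while its distal site held 1.45, 1.73 and 9.74 in wild type and 26.6, 22.9, 15.0, 32.2 and 7.17 in mutants.

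Slc25a18, a second mitochondrial glutamate carrier, ended at the distal site in 21.95, 16.1 and 33.4% of wild-type and 53.1, 49.6, 37.4, 43.7 and 24.6% of mutant reads. As in Slc25a22, mutant 5 lay among the wild types and the other mutants above them (log2 change 1.23, SE 0.440). Slc25a32, the mitochondrial folate and FAD carrier, averaged only 47.6 reads a library, with distal shares of 75, 75 and 71.0% in wild type and 91.7, 89.6, 80.3, 89.9 and 77.1% in mutants. Those groups did not overlap (log2 change 1.21, SE 0.496). Slc25a15, the ornithine carrier of the urea cycle, went the other way, with 95.8 ± 1.20% for wild type (SD, n = 3) and 92.1 ± 3.003% for mutants (SD, n = 5). Mutant 3, at 95.5%, lay within its wild-type range.

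Of 8 tested carriers of organic anions and cations, 3 had an unadjusted p under 0.05, all toward the distal site, where all pairs had 8.57%. Slc22a23, an orphan member of the organic ion transporters, had distal shares of 22.7, 14.2 and 29.4% in wild type and 47.2, 46.5, 37.7, 33.9 and 23.9% in mutants. Its distal site held 25.9 ± 12.4 CPM for wild type (SD, n = 3) and 51.2 ± 11 for mutants (SD, n = 5), and its proximal site 90.4 ± 21.3 and 85.4 ± 17.1. Slco1c1 carries thyroxine across the blood-brain barrier, and its distal site, a minor one, took 1.53, 2.05 and 5.18% in wild type and 7.03, 5.94, 4.17, 8.92 and 4.45% in mutants. Mutants 3 and 5 lay below wild type 3 in that gene (log2 change 1.16, SE 0.424, edgeR adjusted p = 0.388). The last of the 3, Slco5a1, averaged 24.1 reads a library and is named here after its values were seen.

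Of 17 tested carriers of amino acids and peptides, 2 leaned toward the distal site at an unadjusted p under 0.05 and 1, Slc7a1, toward the proximal. The 2 were Slc7a14 and Slc7a11, the latter named after its values were seen. These counts are 11.8 and 5.88%, against 8.57 and 4.16% of all pairs. Slc7a14, a lysosome-associated member of the cationic amino acid family, had distal shares of 16.3, 12.3 and 24.2% in wild type and 43.0, 36.8, 28.2, 33.7 and 16.5% in mutants. Mutants 1 to 4 lay above all wild types and mutant 5 did not (log2 change 1.10, SE 0.447). Slc7a11, the cystine and glutamate exchanger xCT, had 14.3, 13.1 and 25.8% in wild type and 34.9, 29.5, 25.2, 32.3 and 16.4% in mutants, with mutants 3 and 5 within the wild-type range (log2 change 0.85, SE 0.381). Slc1a4, the neutral amino acid transporter ASCT1 that carries serine, had 80.3, 73.8 and 75.1% in wild type and 67.2, 66.0, 64.2, 71.3 and 73.7% in mutants. In Slc1a4 every mutant was below every wild type, mutant 5 by the least (log2 change -0.57, SE 0.239, edgeR adjusted p = 0.388).

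The Slc1 and Slc6 families mostly take up transmitter at the plasma membrane. Of their 9 tested members, 2 had an unadjusted p under 0.05, both toward the proximal site, where all pairs had 4.16%. They were Slc1a4, above, and Slc6a17, a vesicular neutral amino acid transporter. Slc6a17 ended at the distal site in 99.29 to 99.56% of wild-type and 98.78 to 99.36% of mutant reads, a difference of under 1 percentage point with mutant 2 inside the wild-type range. Slc1a2, the main glial glutamate transporter GLT-1, stood at 96.0, 96.8 and 98.9% in wild type and 99.2, 99.1, 98.6, 99.0 and 96.7% in mutants, so that mutants 3 and 5 lay within the wild-type range (log2 change 0.98, SE 0.537, edgeR adjusted p = 0.431). The vesicular GABA transporter Slc32a1 was at 98.9 to 99.3% in wild type and 99.2 to 99.4% in mutants, and its edgeR adjusted p was 0.425. Slc24a2, a potassium-dependent sodium-calcium exchanger of neurons, went from 99.88 ± 0.0714% for wild type (SD, n = 3) to 99.67 ± 0.173% for mutants (SD, n = 5), with mutant 5 at 99.91%.

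**Figure D2:**
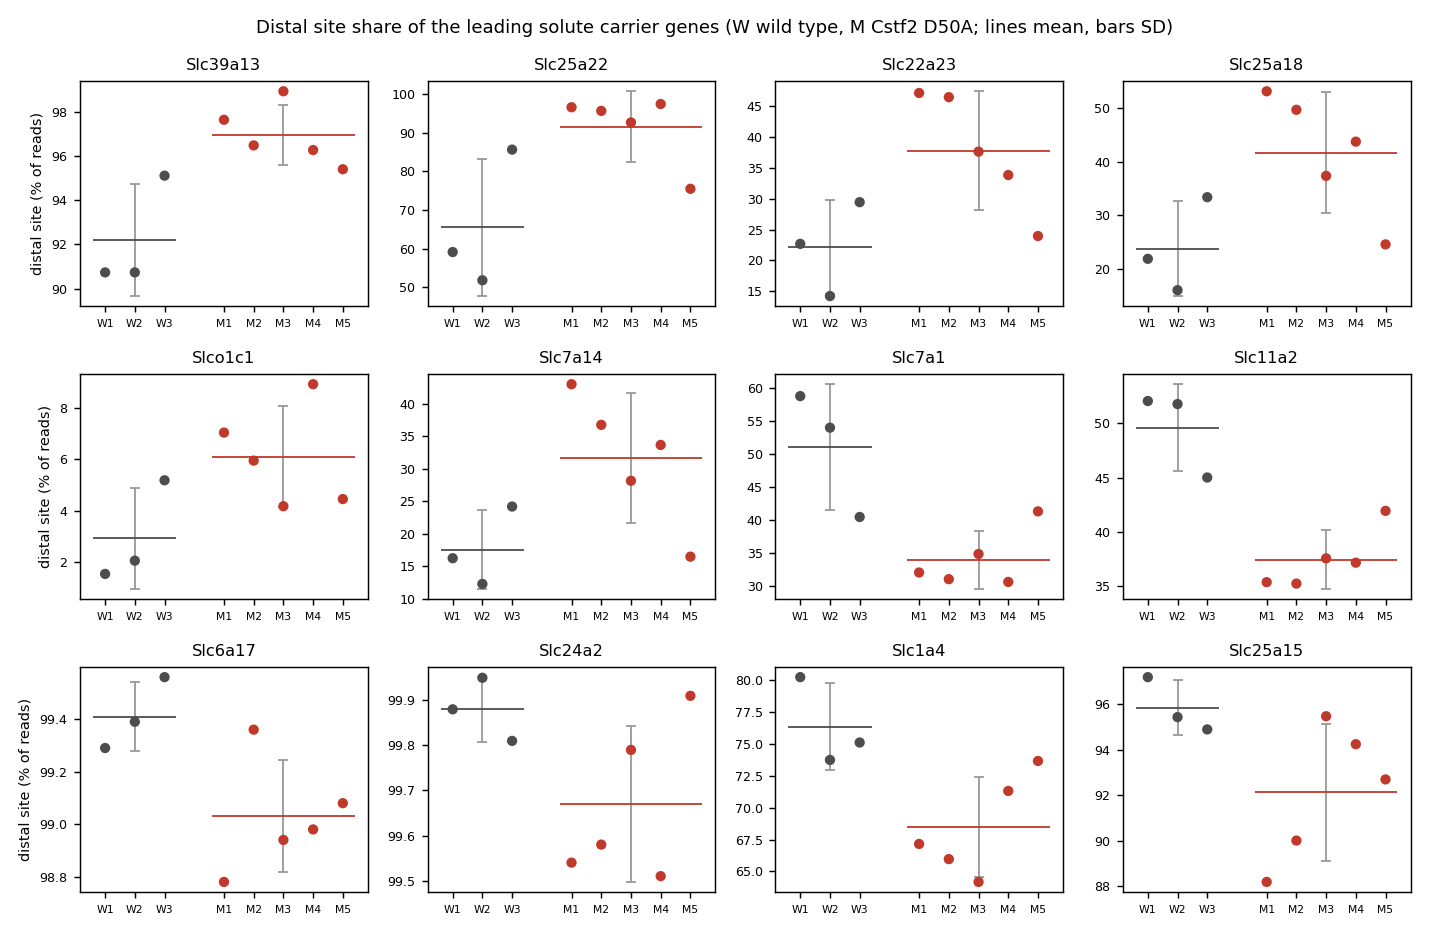
Distal site share (% of reads at both sites) by library for the 12 solute carrier genes with the smallest unadjusted edgeR p in each direction and at least 50 reads a library. Points are libraries (W wild type, M Cstf2 D50A), lines means and bars SD; each panel has its own axis, which does not start at 0. Mutants 1 to 4 sit apart from wild type in Slc25a22, Slc22a23, Slc25a18 and Slc7a14, in which mutant 5 sits among the wild types; only Slc39a13, Slc11a2 and Slc1a4 show no overlap.

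Across exons, solute carrier transcripts mostly ended in the 3′-most exon: its wild-type share had a median of 94.6% over 106 tested members, against 93.8% over all pairs. In 62 members it was 90% or more (58.5%, against 58.8% of all pairs). It was under 50% in 12 (11.3%, against 12.2% of all pairs), among them Slc20a2, Slc2a9, Slco3a1, Slc22a4, Slc39a10, Slc11a2 and Slc15a2.

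Of these 106 members, 12 leaned toward the 3′-most exon in mutants at an unadjusted p under 0.05 (11.3%), against 10.3% of all pairs. Toward the upstream exon there was 1, Slc46a3 (0.943%), against 3.6% of all pairs. The log2 change was positive in 78 members (73.6%, against 62.2% of all pairs), and its median was 0.27 against 0.17. All mutants lay above all wild types in 5 members (4.72%), against 4.23% of all pairs, and below in 0, against 1.65%. DESeq2 called 0 members and 0.0833% of all pairs.

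Slc25a42, the mitochondrial carrier of coenzyme A, had the largest change among the leading members, at a low depth of 50.6 reads a library. Its 3′-most exon held 8.82, 2.53 and 25% of reads of the wild types and 64.6, 59.5, 52.9, 48.8 and 16.3% in mutants. Mutants 1 to 4 were above all wild types and mutant 5 was between wild type 1 and wild type 3 (log2 change 2.98, SE 0.808, edgeR adjusted p = 0.287). Without wild type 3 the edgeR adjusted p was 0.0389 and without mutant 5 it was 0.0207.

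Slc20a2, the sodium-phosphate cotransporter PiT-2, whose loss is known to cause brain calcification, had 2.99, 4.06 and 14.4% in the 3′-most exon in wild type and 40.0, 35.3, 15.0, 44.7 and 5.14% in mutants. Its 3′-most exon held 2.25 ± 1.90 CPM for wild type (SD, n = 3) and 8.66 ± 5.66 for mutants (SD, n = 5), beside 30.1 ± 3.70 and 21.4 ± 4.17 at the upstream site. Slco3a1, an organic anion transporter that carries prostaglandins, had 13.98, 9.26 and 20.7% in wild type and 33.9, 37.4, 25.7, 29.4 and 16.3% in mutants. In both genes mutant 5 was within the wild-type range and the other mutants were above it; the edgeR adjusted p was 0.289 and 0.287.

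Amino acid carriers held 3 of the 12 members: Slc7a1, Slc7a14 and Slc38a2. In that role 3 of 12 tested had an unadjusted p under 0.05, all toward the 3′-most exon, where all pairs had 10.3%. Slc7a14 had 49.0, 71.9 and 81.5% in wild type and 88.9, 86.8, 82.1, 90.9 and 74.5% in mutants, with mutant 5 again inside the wild-type range. Slc38a2, the sodium-coupled glutamine transporter SNAT2, had 51.6, 53.6 and 53.9% in wild type and 62.1, 61.9, 61.0, 63.3 and 57.1% in mutants. All mutants of Slc38a2 were above all wild types (log2 change 0.48, SE 0.218, edgeR adjusted p = 0.353). Here the upstream site was the one that differed more, with 123 ± 13.4 CPM for wild type (SD, n = 3) and 77.5 ± 16.4 for mutants (SD, n = 5), beside 138 ± 8.52 and 120 ± 12.9 in the 3′-most exon.

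Slc24a3, a sodium-calcium exchanger, ended in the 3′-most exon in 99.67 to 99.83% of wild-type and 99.86 to 99.95% of mutant reads. These groups did not overlap, although they differ by a fraction of a percentage point (log2 change 1.39, SE 0.397). The upstream site of Slc24a3 held only 8, 15 and 6 reads in wild types 1 to 3 and 4, 3, 2, 4 and 3 in mutants 1 to 5. Slc12a5 was at 98.8, 98.7 and 99.2% in wild type and 99.5 to 99.6% in mutants 1 to 4, with mutant 5 at 98.7% (edgeR adjusted p = 0.319, and 0.0369 without mutant 5). Leaving out mutant 5 let 4.01% of all pairs pass, and over all alternatives the adjusted p of Slc12a5 ran up to 0.685. Slc6a11, the GABA transporter GAT-3 of astrocytes, went from 99.56 ± 0.203% (SD, n = 3) to 99.76 ± 0.0827% (SD, n = 5). Slc25a32 had 48.4, 40.7 and 62.0% in wild type and 70.8, 64.4, 78.4, 79.1 and 52.4% in mutants, where mutant 5 lay below wild type 3.

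Toward the upstream exon, Slc46a3, a lysosomal carrier, had 84.9, 95.0 and 90.7% in the 3′-most exon in wild type and 78.6, 74.4, 69.2, 76.0 and 94.9% in mutants. Slc35a2, the X-linked Golgi transporter of UDP-galactose, had 85.0, 84.0 and 67.9% in wild type and 47.5, 57.9, 77.1, 52.2 and 82.6% in mutants. Mutants 1 to 4 lay below all wild types in Slc46a3, while in Slc35a2 mutants 3 and 5 lay above wild type 3 (edgeR adjusted p = 0.335 and 0.370). Slc44a1, a choline transporter needed for phosphatidylcholine synthesis, was at 95.0 ± 0.911% for wild type (SD, n = 3) and 93.0 ± 1.45% for mutants (SD, n = 5). Slc25a36, a mitochondrial pyrimidine nucleotide carrier, went from 99.86 ± 0.118% to 99.69 ± 0.170%, and Slc35b2, the Golgi carrier of the sulfate donor PAPS, from 92.7 ± 1.88% to 90.5 ± 1.20% (SD, n = 3 and 5).

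**Figure D3:**
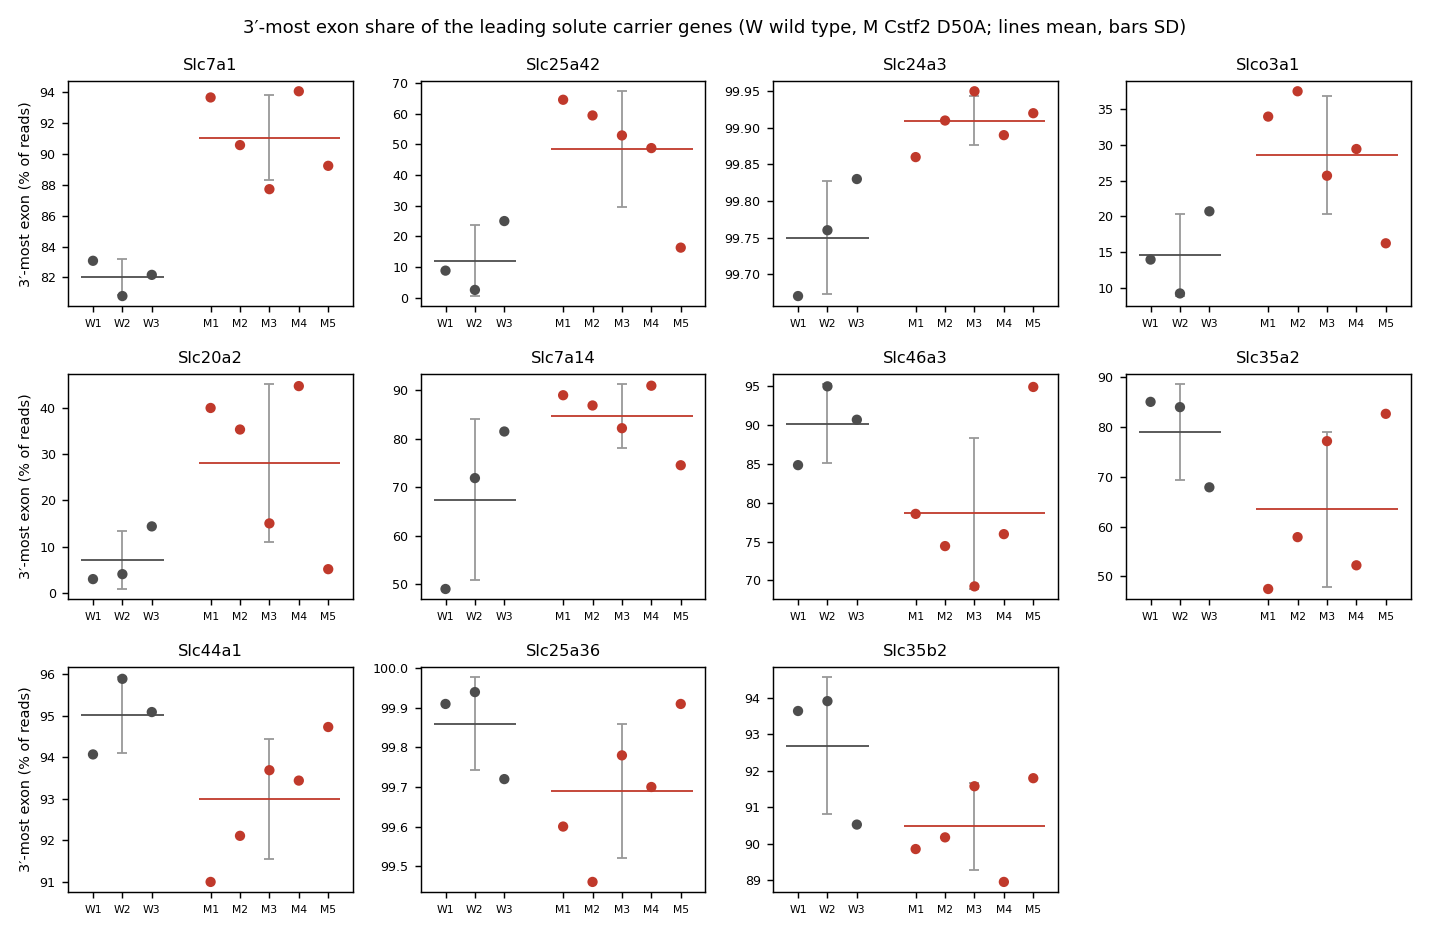
Share of reads in the 3′-most exon (% of reads there and at the upstream-exon site) by library for 11 of the solute carrier genes with the smallest unadjusted edgeR p in each direction and at least 50 reads a library. Points are libraries (W wild type, M Cstf2 D50A), lines means and bars SD; each panel has its own axis, which does not start at 0. Slc7a1 and Slc24a3 show no overlap, and in Slc25a42, Slco3a1, Slc20a2 and Slc7a14 mutant 5 sits in the wild-type range.

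Of the 63 members in both tables, 62 were tested in both. The direction of the 2 usage changes was the same in 40, and 3 members had an unadjusted p under 0.05 in both: Slc7a1, Slc7a14 and Slc25a32. The same counts over all genes found in both tables were not made. In Slc7a14 and Slc25a32 the distal site and the 3′-most exon were both used more in mutants, whereas in Slc7a1 the 3′-most exon was used more and its distal site less. The tables share reads in these genes, and in all 63 the proximal and distal counts together never exceeded the count of the 3′-most exon.

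By the first table, 16 of 137 members had an unadjusted p under 0.05 toward a higher level in mutants (11.7%), against 7.31% of all genes tested. Toward a lower level there were 4 (2.92%), against 7.07%. The median log2 change of members was 0.09, against 0.01 over all genes. All mutants lay above all wild types in 4 members, against 2.45% of all genes, and below in 3, against 2.31%. DESeq2 called 2 members and 0.33% of all genes. By the second table the counts were 8 higher and 5 lower (7.55 and 4.72%), against 7.6 and 7.45% of all genes, with 3 members wholly above (2.28% of all) and 2 wholly below (2.5% of all). DESeq2 called 0% there.

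Levels were also fitted with the mean of the granule markers as a covariate. In the first table that mean was 6.96 to 7.19 in wild type, 4.85 to 4.93 in mutants 1 to 4 and 6.95 in mutant 5. The fit cannot separate genotype from marker level in mutants 1 to 4. Its genotype change rests mainly on mutant 5 against wild type. With this covariate, 1 of 137 members had an unadjusted edgeR p under 0.05 in the first table. In the second it was 1 of 106, and in both it was Slc7a1. No gene of either table passed an adjusted edgeR p of 0.05 in that fit. The share of all genes at the unadjusted threshold was not counted there, so these counts have no background beside them. The change shrank in some members and stayed near its value in others: in the first table the log2 change was 0.37 without and 0.32 with the covariate in Slc1a4, and -0.46 and -0.50 in Slc38a4. In the second it was 0.36 and 0.31 in Slc45a4, and 0.46 and 0.39 in Slc25a32. In 85 of 137 members the level of mutant 5 lay within the wild-type range by the first table, against 46, 58, 87 and 49 for mutants 1 to 4; mutant 3 was as often inside as mutant 5. Whether the tissue content accounts for the level differences was not tested.

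The carriers that took the most reads overlapped between the genotypes in level. Slc17a7 was at 11.5, 12.6 and 11.95 log2 CPM in wild type and 11.96 to 12.4 in mutants (edgeR adjusted p = 0.790). Slc25a4, the heart and brain adenine nucleotide translocator, was at 9.35 ± 0.0316 for wild type (SD, n = 3) and 9.35 ± 0.0394 for mutants (SD, n = 5), with equal means at this precision. Slc48a1, a haem transporter, Slc6a11, Slc32a1, Slc24a2 and Slc30a3, the synaptic vesicle zinc transporter ZnT3, overlapped between the groups, with edgeR adjusted p from 0.389 (Slc24a2) to 0.608 (Slc6a11). Slc1a2 was at 8.81, 9.22 and 10.2 in wild type and 10.6, 10.4, 9.78, 10.5 and 9.14 in mutants, so that wild type 3 lay among the mutants and mutant 5 among the wild types (log2 change 0.63, SE 0.388, edgeR adjusted p = 0.394). With the granule covariate the sign of the Slc1a2 change turned, to -0.48.

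Slc25a22 was at 1.39, 1.81 and 3.53 log2 CPM in wild type and 4.79, 4.59, 4.04, 5.05 and 3.27 in mutants. Mutant 5 lay below wild type 3 and the other mutants above (log2 change 1.94, SE 0.546, edgeR adjusted p = 0.345, DESeq2 adjusted p = 0.0328). With the granule covariate its log2 change was 0.63 and its edgeR adjusted p was 1. Slc25a32 was at 1.51, 0.68 and 1.43 in wild type and 2.54, 2.47, 2.33, 2.53 and 1.72 in mutants, with no overlap (log2 change 1.18, SE 0.282, edgeR adjusted p = 0.345, and 0.0437 without mutant 5). With the granule covariate that change was 0.55.

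Slc36a1, a lysosomal proton-coupled amino acid transporter, was at 4.90, 5.28 and 6.33 log2 CPM in wild type and 6.74, 6.69, 6.54, 6.85 and 6.29 in mutants. Slc33a1, the acetyl-CoA transporter of the endoplasmic reticulum, was at 1.72, 1.21 and 2.83 in wild type and 4.15, 4.16, 2.99, 4.40 and 2.07 in mutants. Each of them had mutant 5 below wild type 3, with log2 changes of 1.00 (SE 0.293) and 1.75 (SE 0.575). With the granule covariate these were 0.58 in Slc36a1 and -0.06 in Slc33a1. Slc16a1, the monocarboxylate transporter MCT1 of vessels and glia, was at 3.42, 2.53 and 3.22 in wild type and 3.71, 4.02, 3.75, 3.81 and 3.30 in mutants, of which mutant 5 alone lay below a wild type (log2 change 0.66, and 0.24 with the covariate). Slc1a4 was at 4.74, 5.12 and 5.10 in wild type and 5.26 to 5.49 in mutants, without overlap (log2 change 0.37, SE 0.137, edgeR adjusted p = 0.345).

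Slc2a1 and Slc12a5 ordered the libraries almost alike. Slc36a1 and Slc1a2 followed nearly the same order, so it is not particular to this pair. Slc2a1, the glucose transporter GLUT1 of endothelium and glia, was at 3.65, 3.97 and 5.39 log2 CPM in wild type and 5.94, 5.71, 5.10, 6.01 and 4.71 in mutants (log2 change 1.03, SE 0.436), and 0.08 with the granule covariate. In the first table the mean of the endothelial and pericyte markers orders the libraries as Slc2a1 does, apart from mutants 1 and 4 changing places. The level of the neuronal Slc12a5 orders the libraries as those markers do. The endothelial and pericyte markers measured in the second table order them otherwise, with wild type 3 (4.29) above mutant 2 (4.05). The part of vessel content in either gene was not tested. Slc12a5 was at 6.54, 7.24 and 7.95 in wild type and 8.27, 8.09, 7.91, 8.16 and 7.64 in mutants (log2 change 0.68, SE 0.277, and 0.22 with the granule covariate), with wild type 3 above mutants 3 and 5.

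Among lower levels, Slc1a6, the glutamate transporter EAAT4 of Purkinje cells, was at 7.92, 7.98 and 7.82 log2 CPM in wild type, at 6.21, 6.28, 6.51 and 6.25 in mutants 1 to 4, and at 8.25 in mutant 5. Mutant 5 was thus the highest of all libraries and the other 4 mutants the lowest, the same split as in the Purkinje and granule markers (log2 change -0.95, SE 0.460, edgeR adjusted p = 0.350). Without mutant 5 the change was -1.59 with an edgeR adjusted p of 0.000182, and with the granule covariate it was 0.40. Slc35g2, an orphan carrier, was at 3.20, 3.02 and 3.06 in wild type and 2.39, 2.54, 2.39, 2.65 and 2.84 in mutants, with no overlap (log2 change -0.53, SE 0.163, and -0.24 with the covariate). Slc30a9, a mitochondrial zinc transporter, had 7.24 ± 0.144 for wild type (SD, n = 3) and 6.998 ± 0.0893 for mutants (SD, n = 5), also with no overlap (log2 change -0.25, and -0.12 with the covariate).

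Slc9a7, an endosomal sodium-proton exchanger encoded on the X chromosome, had 4.42 ± 0.106 for wild type (SD, n = 3) and 4.06 ± 0.206 for mutants (SD, n = 5), with mutant 5 inside the wild-type range (log2 change -0.36, and -0.03 with the covariate). Slc38a4, a neutral amino acid transporter, went from 2.89 ± 0.304 to 2.44 ± 0.190 and Slc35b2 from 5.86 ± 0.536 to 5.39 ± 0.202 (SD, n = 3 and 5), and both overlapped. With the covariate the log2 change of Slc35b2 went from -0.52 to -0.14.

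In the second table, Slc22a4, a transporter of ergothioneine, was at 3.56, 3.17 and 2.65 log2 CPM in wild type and 1.98, 1.68, 2.05, 2.14 and 2.84 in mutants. Mutant 5 alone lay within its wild-type range (log2 change -1.01, SE 0.287, edgeR adjusted p = 0.327, and 0.0449 without mutant 5). Leaving out mutant 5 let 1.18% of all genes of the second table pass. Slc6a13, the GABA transporter GAT-2 of the meninges, was at 5.52, 5.55 and 5.12 in wild type and 4.49, 4.74, 4.79, 5.03 and 5.26 in mutants. Slc38a2 was at 8.14, 8.02 and 7.90 in wild type and 7.40, 7.60, 7.61, 7.53 and 7.95 in mutants. In Slc6a13 and Slc38a2 mutant 5 overlapped wild type 3, with log2 changes of -0.53 (SE 0.182) and -0.40 (SE 0.137). With the granule covariate the log2 change was -0.30 in Slc22a4, -0.18 in Slc6a13 and -0.07 in Slc38a2.

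Slc13a5, the sodium-coupled citrate transporter, was at 4.21, 4.47 and 4.23 log2 CPM in wild type and 3.59, 3.91, 4.11, 3.83 and 4.14 in mutants, with no overlap (log2 change -0.39, SE 0.160, and -0.21 with the covariate). Slc45a4, a proton-coupled sugar transporter, was at 6.13, 6.91 and 6.53 in wild type and 6.75 to 7.03 in mutants, where wild type 2 lay among the mutants. Of the 11 carriers of the secretory pathway tested there, 4 had an unadjusted p under 0.05 toward a higher level and 1 toward a lower one, where all genes had 7.6 and 7.45%. Besides Slc33a1, the higher ones were Slc35f4, Slc35e3 and Slc35f5, with 25.8 to 39.1 reads a library, which are named after their values were seen.

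**Figure D4:**
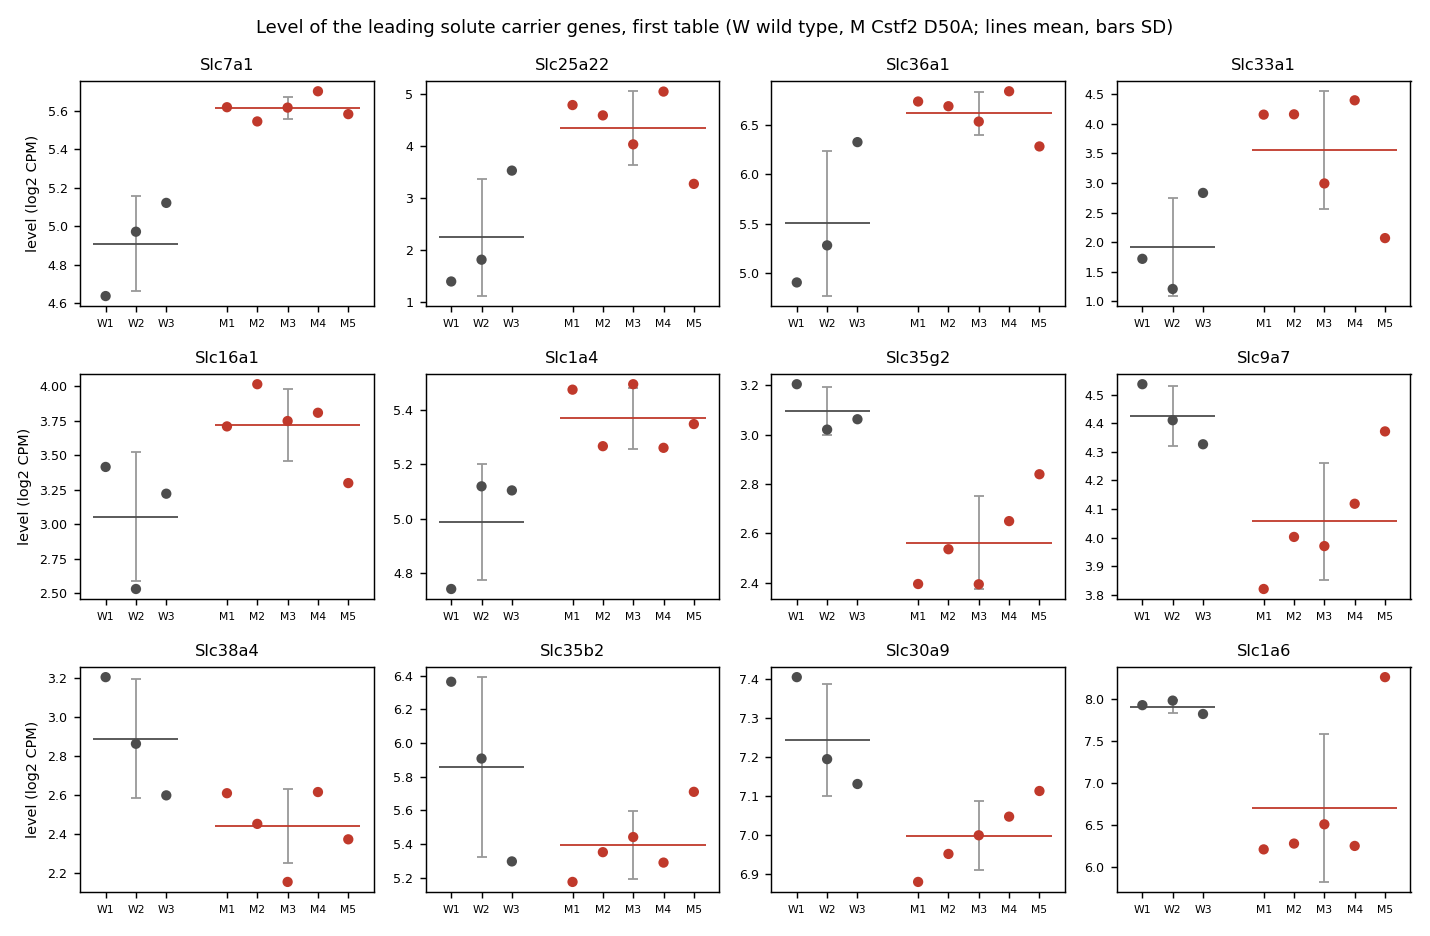
Level (log2 CPM, first table) by library for the 12 solute carrier genes with the smallest unadjusted edgeR p in each direction and at least 50 reads a library. Points are libraries (W wild type, M Cstf2 D50A), lines means and bars SD; each panel has its own axis, which does not start at 0. Slc7a1, Slc1a4, Slc35g2 and Slc30a9 show no overlap, and Slc1a6 puts mutant 5 (8.25) above every other library.

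By role, the median log2 change in distal site usage ran from -0.29 in 9 plasma-membrane transmitter carriers to 0.59 in 8 organic ion carriers, against 0.12 over all pairs. In 3′-most exon usage it was positive in all 9 roles with members, from 0.07 in 12 carriers of vitamins, choline and haem to 0.60 in 11 of the secretory pathway, against 0.17 over all pairs. In level by the first table it ran from -0.10 in 9 carriers of vitamins, choline and haem to 0.30 in 3 vesicle-loading carriers, against 0.01 over all genes. Sugar and monocarboxylate carriers had 4 of 13 members with an unadjusted p under 0.05 toward a higher level (Slc2a1, Slc16a1, Slc45a4 and the choline transporter Slc5a7) and 0 lower, where all genes had 7.31 and 7.07%. By the second table the same role had 0 of 11 higher and 1 lower. No test compared roles.

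**Figure D5:**
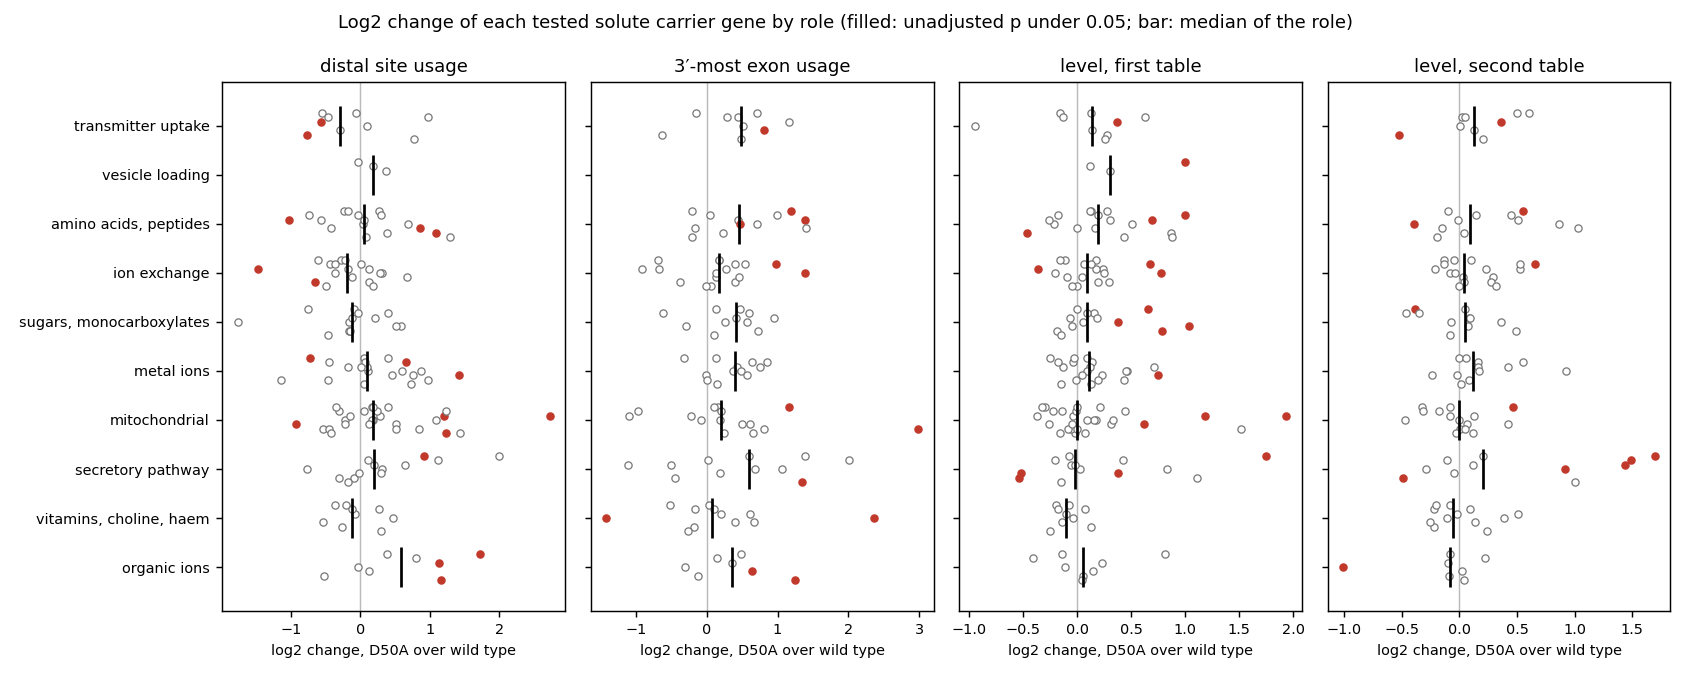
Log2 change (Cstf2 D50A over wild type) of each tested solute carrier gene by role, in distal site usage, 3′-most exon usage and level by each table. Each point is a gene, filled where the unadjusted edgeR p is under 0.05, and the black bar is the median of the role; axes differ between panels. Points of each role lie on both sides of 0 in most panels, with more filled points to the right in 3′-most exon usage (12 against 1).

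Genes that work with the carriers were also read from the tables, with 7.31% of all genes higher and 7.07% lower by the first table as background. Of 11 tested gradient pumps, 1 had an unadjusted p under 0.05 toward a higher level by the first table and 0 toward a lower one. Of 7 mitochondrial channels and pyruvate carrier subunits, 3 (Micu2, Mtch2 and Vdac3) were toward a lower level and 0 toward a higher one at that threshold. Of 10 transmitter-making and -breaking enzymes, 3 were toward a higher level and 0 lower. Of 16 ABC transporters 2 were toward higher and 0 lower, and of 10 kinases and chaperones of solute carriers 1 was toward each. In distal site usage, 3 of the 10 enzymes leaned toward the distal site and 0 toward the proximal, against 8.57 and 4.16% of all pairs, and DESeq2 called 1, Hnmt, which inactivates histamine (adjusted p = 0.000184). Of the other lists, 1 of 16 ABC transporters leaned each way and 1 of 11 pumps toward the proximal site. There were 0 in either direction for the channels and for the kinases and chaperones. In 3′-most exon usage, 3 of 7 enzymes, 2 of 10 kinases and chaperones and 1 of 8 pumps leaned toward that exon, 2 of 7 channels toward the upstream exon, and 0 of 13 ABC transporters either way, against 10.3 and 3.6% of all pairs. None of these genes passed an adjusted edgeR p of 0.05.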

How the data were processed

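Libraries were made from total RNA of whole brain by the REV version of QuantSeq 3′ mRNA-Seq, which primes on the poly(A) tail, per the labels' protocols. Per the submitters' processing notes the tools were FastQC 0.11.3, STAR 2.5 and HTSeq 0.6.0 and the build was mm9; the role of each is not stated. How sites were picked, whether internally primed reads were removed and whether strand was used are not given in the sources used here; members that overlap another gene or have a near copy are uncertain. The authors deposited whole-number read counts per site and library, which were used as deposited; 0 value columns were left unused. No member shared all its counts with another gene.

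Groups follow the genotype in the labels, which name no pairing; a replicate number only names a library, in accession order. Chi-square per degree of freedom between libraries of a genotype ran from 3.99 to 114, and no library repeated another of its genotype. Pairs of sites averaging 20 or more reads with at least 10 at each site in all were tested: 7876 and 6001. Members below this filter were Slc12a8, Slc16a10, Slc2a12 and Slc35g1 in the first table and 0 in the second. Usage was tested with edgeR 4.0.16 (glmQLFit with a robust prior, glmQLFTest) on the counts of both sites, with a term for each library and the site-by-genotype interaction as coefficient. Level was tested on the summed counts with TMM scaling, and is given as log2 CPM with a prior count of 2, relative to the genes of its table. p-values were adjusted by Benjamini-Hochberg over all pairs of a table with a threshold of 0.05, and SE was obtained by dividing the log2 change by the root of F. CPM values of 1 site use the same scaling and carry no test. R 4.3.3, limma 3.58.1 and DESeq2 1.42.0 served the alternatives, and the code was tested on simulated data.

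The members, 10 roles (by Slc family number), 16 gene lists (5 of partner genes, 11 of cell markers) and alternatives were chosen with earlier results of these data known. Members are named that passed a threshold, had the 6 smallest p in a direction with 50 or more reads, held the most reads, belong to 30 well-known brain carriers, or had the largest upstream share; some results that this rule would name are not reported here. Of the marker lists, oligodendrocyte (11 of 12 measured), astrocyte (5 of 10), microglia (4 of 10), choroid plexus (4 of 10), leptomeninges (5 of 10), excitatory forebrain (9 of 10), GABAergic (7 of 10) and striatal (8 of 10) markers had a median log2 level change, first table, of -0.28, -0.15, 0.02, -0.05, -0.17, 0.50, 0.21 and 0.04.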

Additional observations from a re-analysis of the deposited data

Results flagged for a closer look

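In 5 of 62 values of the leading members examined among the 5 mutants, 1 library lay apart from the other 4 by Dixon's ratio. All 5 times it was mutant 5. The ratio flags about 1 in 20 of independent, unselected values, but these were mostly picked for a small p. Shares and levels of a gene also use the same reads. The count of 5 therefore has no chance rate to be set against. Its distal share was 75.5% in Slc25a22 beside 92.6 to 97.4% in the other mutants, and 96.7% in Slc1a2 beside 98.6 to 99.2%. Its 3′-most exon share of Slc12a5 was 98.7% beside 99.5 to 99.6%. Its level was 8.25 log2 CPM in Slc1a6 beside 6.21 to 6.51, and 1.72 in Slc25a32 beside 2.33 to 2.54. Each of the 3 shares lay within the range of the wild types. The cerebellar markers of this library are at the wild-type level, as given above, and their part in these values was not tested.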

How the results depend on the processing

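Over the 62 changes of single members examined, 57 kept their direction under every alternative run for them. The alternatives were DESeq2, limma-voom, no filter or stricter ones, no robust prior (added after the data were seen) and leaving out each library. For levels only, other scalings and the granule covariate were added. A level change fitted beside that covariate rests mainly on mutant 5 against wild type. Most of the 62 were picked for a small p in these same counts. A kept direction was therefore likely beforehand and is no separate support, and unselected pairs were not examined in this way. With the granule covariate, Slc33a1 (-0.064), Slc1a6 (0.40) and Slc1a2 (-0.476 and -0.415 in the 2 tables) reversed in level; without wild type 1, so did Slc17a7 (-0.114, the lowest of a range up to 0.445 over left-out libraries). The number of members past an adjusted p of 0.05 was 0 in every alternative for distal site usage. It ran from 0 to 7 for 3′-most exon usage (1 without wild type 3, among 2.45% of all pairs, and 7 without mutant 5: Slc7a1, Slc7a8, Slc7a14, Slc12a5, Slc20a2, Slc25a42 and Slco3a1, among 4.01% of all pairs), from 0 to 2 for level by the first table (Slc1a6 and Slc25a32 without mutant 5, among 0.888% of all genes; 2 by DESeq2, among 0.33%) and from 0 to 1 by the second (Slc22a4 without mutant 5, among 1.18%). Leaving out libraries moved the counts at an unadjusted p under 0.05 from 1 to 27 toward the distal site (1 without wild type 2, 27 without mutant 5), from 6 to 24 toward the 3′-most exon (6 without wild type 1, 24 without mutant 5), and from 7 to 26 toward a higher level by the first table (7 without wild type 1, 26 without wild type 3) beside 1 to 11 toward a lower one. Matching whole-table counts for each omission are not given. Whether these ranges are particular to solute carriers therefore cannot be told. In 3′-most exon usage, the share of all pairs past the adjusted threshold also rose, to 2.45% without wild type 3 and 4.01% without mutant 5. No paired analysis was possible because the labels give no replicate numbers. Leaving out wild type 3 and mutant 5 together was not run, since these would be picked by their measured values. Members under 50 reads a library have the least certain shares. Changes that rest on few reads at a minor site, as in Slc24a3, Slc24a2, Slc6a17 and Slc25a36, are uncertain too. Intervals for counting error were not used.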
